A study of Mus musculus with 8 samples.

Results

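Transcripts of the capsule behind the knee were sequenced in wild-type C57BL/6 male mice aged 10 weeks. A group of 4 libraries, called cast here, came from mice whose knee was immobilised at 140 degrees over the last 2 weeks before sampling, and the other 4 libraries came from naive mice. The genes described are 9 that are used as markers of tendon, ligament and their sheaths, namely Tppp3, Scx, Mkx, Tnmd, Comp, Thbs4, Cilp, Cilp2 and Chad. They were taken by symbol from a list of markers drawn up with earlier results of these data known, and all 9 had a row among the 16464 genes of the deposited table. The labels do not state whether each library is 1 mouse or a pool, or which knee was taken from naive mice, and p values therefore measure the spread between libraries, which may be technical.

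Tendons and ligaments are dense collagen cords built by fibroblasts, and the posterior joint capsule is a fibrous sheet of related tissue. Scleraxis, encoded by Scx, is the transcription factor that marks tendon and ligament progenitors, and Mohawk, encoded by Mkx, is a homeobox factor that maintains tendon cell identity and collagen production. Tenomodulin, encoded by Tnmd, is a membrane glycoprotein of maturing tendon cells. Tppp3 encodes a tubulin-binding protein that marks the sheath and paratenon, and also synovial joint cells. The other 5 genes encode secreted matrix proteins: the pentameric glycoproteins COMP and thrombospondin 4, the cartilage intermediate layer proteins of Cilp and Cilp2, and chondroadherin, a leucine-rich repeat protein of cartilage and tendon that binds collagen and integrin.

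Values are normalised read counts, that is, reads of a gene divided by a factor of its library, with totals of 972758 to 1045293 per library. The cast libraries held 5956148 to 7381255 recovered reads and naive replicates 1 to 3 held 6038095 to 6805349, but naive replicate 4 held 1503880. Its log2 values correlated with those of the other naive libraries at 0.903 to 0.915 across genes, against 0.983 to 0.985 among naive replicates 1 to 3 (genes are not independent replicates). Log2 fold changes compare cast with naive libraries after 1 is added to each value, which understates changes of low genes. Positive ones mean higher in cast, and adjusted p values are from limma, a linear model fitted to all 15120 genes with a mean value of at least 0.5, with Benjamini-Hochberg adjustment. All 9 genes had a mean above 0.5 in both groups and were tested.

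Of the 9 genes, 3 fell after casting, 0 rose and 6 did not pass the test at an adjusted p of 0.05. Over all genes tested, 12.0% were called, namely 5.46% lower and 6.51% higher in cast capsules. At an unadjusted p under 0.05, 1 of the 9 genes (Mkx) was higher and 4 were lower, against 14.4% and 12.2% of all genes tested. Of the 9 genes, edgeR on recovered reads called 0 higher and 3 lower (over all genes 7.29% and 6.2%), and DESeq2 called 1 higher and 3 lower (9.69% and 8.54%). The genes that fell were Tppp3, Cilp2 and Chad, and in each of them all 4 cast libraries lay below all 4 naive libraries, a pattern shown by 9.39% of all genes, while 20.5% of all genes separated the groups in either direction. The median log2 fold change was -0.47 over the 9 genes and 0.07 over all genes tested. No gene of the 9 had all cast libraries above all naive libraries. The RNA came from whole tissue, so fewer cells of a type and less RNA per cell cannot be told apart.

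**Figure D1:**
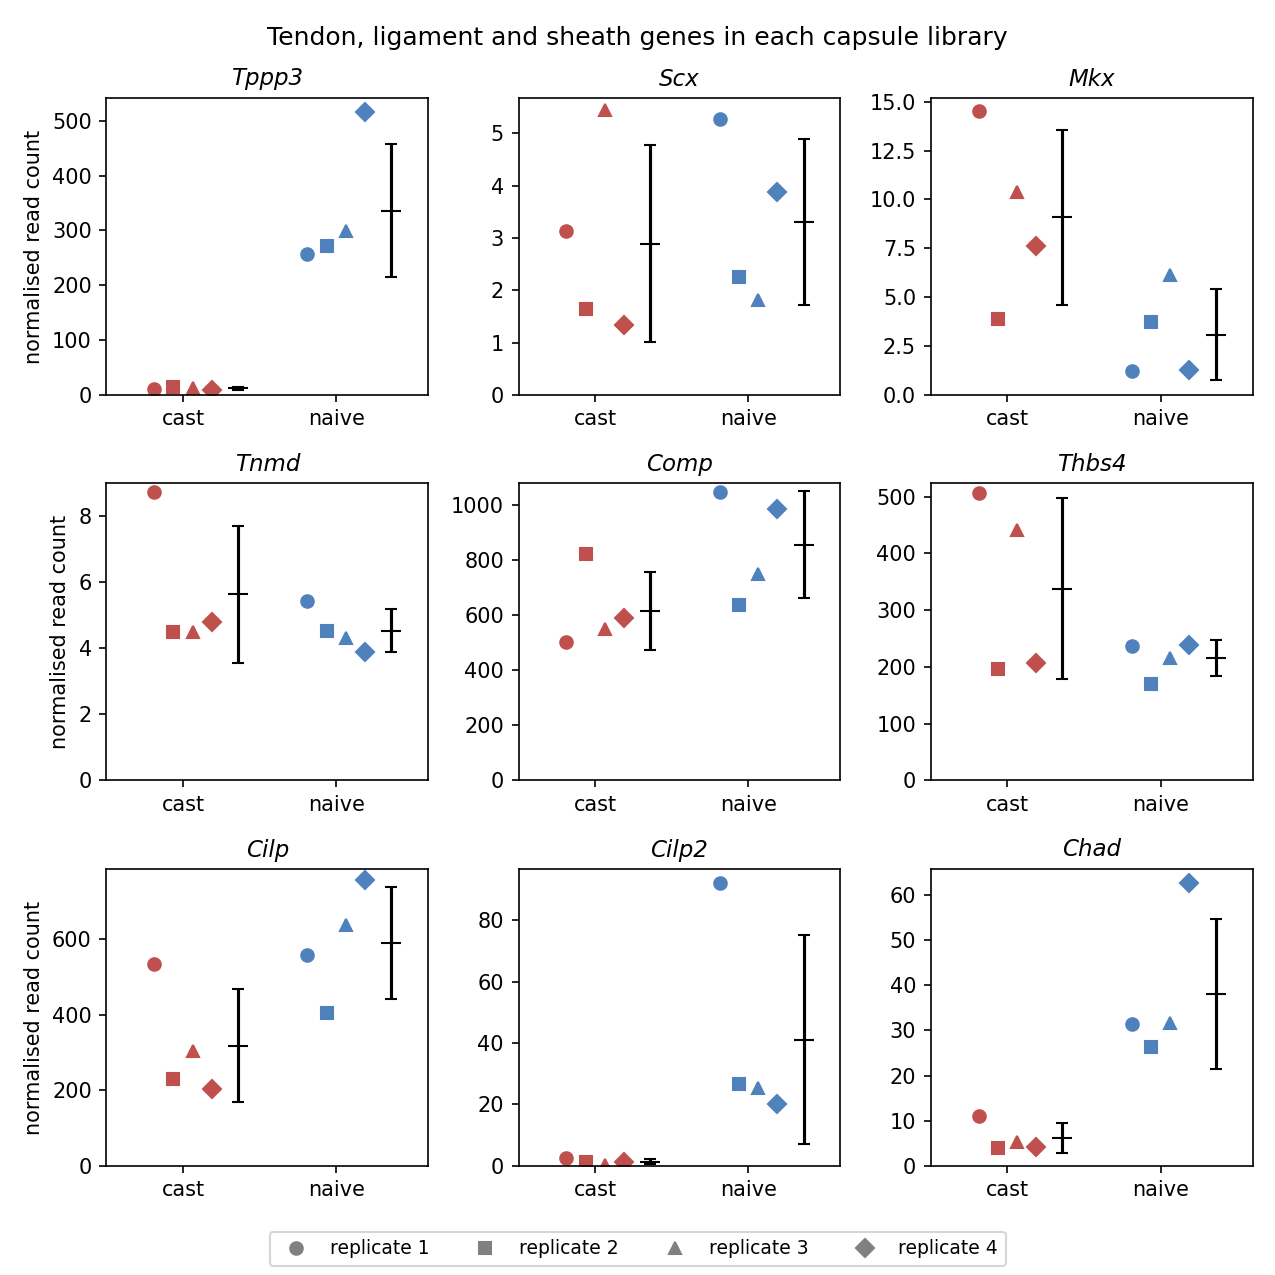
Normalised read counts of the 9 genes in each library, cast on the left and naive on the right of each panel, on linear axes from 0. Symbols mark replicates, and bars give the mean ± SD of 4 libraries. Tppp3, Cilp2 and Chad separate the groups, with cast values of at most 15.3, 2.47 and 11.04 and naive values of at least 257, 20.1 and 26.3, while the groups overlap for the other genes.

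Tppp3, the sheath gene, fell in cast capsules with the smallest p value of all genes tested. It had 11.2, 15.3, 12.7 and 9.60 normalised read counts in cast replicates 1 to 4, against 257, 272, 299 and 516 in naive replicates 1 to 4. The lowest naive library thus lay far above the highest cast library, and naive replicate 4 stood above the other naive libraries. The mean was 12.2 ± 2.41 in cast and 336 ± 121 in naive capsules (SD, n = 4 each), so that the cast mean was 3.63% of the naive mean. The log2 fold change was -4.63 (SE 0.25, 95% interval -5.18 to -4.08, limma adjusted p = 5.86e-05). By unadjusted p, Tppp3 ranked 1 among the 15120 genes tested, and by the size of its fall it ranked 5. It was counted in 335 cast and 5999 naive reads in all, and its lowest library held 68. The gene lies on chromosome 8 at 105467493 to 105471526 on the minus strand (GRCm38, GENCODE M21), and no other annotated gene overlaps it.

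The genes whose values across the 8 libraries were most like those of Tppp3 were Has1, Acss2 and Bicd2, with Pearson r of 0.996, 0.991 and 0.991 on the log2 scale among 9814 genes with a mean of at least 10. These coefficients include the step between the groups and carry no test. Has1, which encodes a hyaluronan synthase, averaged 7.74 ± 1.96 in cast and 65.4 ± 13.0096 in naive capsules (SD, n = 4 each). Acss2, which encodes a cytosolic acetyl-CoA synthetase, averaged 15.1 ± 3.26 in cast and 111 ± 24.7 in naive capsules (SD, n = 4 each). Bicd2, a dynein adaptor gene, averaged 73.03 ± 6.20 in cast and 187 ± 26.1 in naive capsules (SD, n = 4 each).

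Transcripts of the tendon lineage genes proper were scarce in both groups. Scx, the scleraxis gene, had 3.13, 1.65, 5.45 and 1.33 normalised read counts in cast replicates 1 to 4, against 5.27, 2.26, 1.82 and 3.88 in naive replicates 1 to 4. The groups overlapped across nearly their whole range. The log2 fold change was -0.19 (SE 0.38, 95% interval -1.04 to 0.66, limma adjusted p = 0.782), an interval that holds a change of 1 log2 unit downward. These values rest on 80 cast and 66 naive reads, and the 6 reads of naive replicate 4 have a 95% counting interval of 2.202 to 13.1 (exact Poisson, counting error only). Scx lies on chromosome 15 at 76457452 to 76459458 on the plus strand, within the span of Bop1 on the opposite strand, with no exon of either overlapping one of the other.

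Mkx, the Mohawk gene, had higher values in most cast libraries without passing the test. It had 14.5, 3.897, 10.4 and 7.60 normalised read counts in cast replicates 1 to 4, against 1.21, 3.71, 6.12 and 1.29 in naive replicates 1 to 4. Cast replicates 1, 3 and 4 were above every naive library, and cast replicate 2 was below naive replicate 3. The cast mean was 9.09 ± 4.48 and the naive mean 3.08 ± 2.33 (SD, n = 4 each), with a log2 fold change of 1.36 (SE 0.46, 95% interval 0.33 to 2.40, limma adjusted p = 0.0891). Mkx passed in DESeq2 on recovered reads (1.49, adjusted p = 0.0473) but not in edgeR on the same reads (1.45, adjusted p = 0.108). Its lowest count was 2 reads, in naive replicate 4, with a 95% counting interval of 0.242 to 7.22. Mkx lies on chromosome 18 at 6934518 to 7004780 on the minus strand, and one of its exons overlaps an exon of a noncoding gene on the same strand, so reads there could be split.

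Tnmd, the tenomodulin gene, had 8.73, 4.496, 4.499 and 4.80 normalised read counts in cast replicates 1 to 4, against 5.42, 4.52, 4.30 and 3.88 in naive replicates 1 to 4. Apart from cast replicate 1 the libraries of both groups lay close together. The log2 fold change was 0.22 (SE 0.24, 95% interval -0.32 to 0.77, limma adjusted p = 0.605), and the upper bound of the interval reached 1.17 when reads were thinned to the depth of the shallowest library, 1.41 with the muscle covariate and 1.58 after centring on fibroblast genes. Tnmd was counted in 152 cast and 96 naive reads. It lies on chromosome X at 133850980 to 133865577 on the plus strand. The ratio of Tppp3 to Tnmd within a library was 1.28 to 3.40 in cast and 47.4 to 133 in naive libraries. That difference of -5.01 on the log2 scale had p = 0.0286, the smallest that a two-sided exact permutation test over 70 assignments can give (p = 0.0381 adjusted over 4 ratios, whose pairs were chosen after the values were seen). Tppp3 alone already separated the groups, so this p value adds no support of its own.

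COMP and thrombospondin 4 belong to the thrombospondin family, and reads from like stretches of paralogues can be counted for the wrong gene. The longest run that their coding sequences share is 26 bases, shown in capitals with 30 bases on either side (GENCODE M21 transcripts, sense strand).
Thbs4: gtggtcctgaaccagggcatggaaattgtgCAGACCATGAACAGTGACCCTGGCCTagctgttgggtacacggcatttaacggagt
Comp: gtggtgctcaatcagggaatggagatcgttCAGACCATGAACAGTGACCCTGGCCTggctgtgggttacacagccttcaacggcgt
Over the whole coding sequences 71.8% of 2235 aligned bases were identical, and 0 of 2859 stretches of 31 bases of Thbs4 occurred in Comp. Reads were 150 nt long and paired, so a full-length read of one coding sequence differs from the other.

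Comp and Thbs4 were among the most abundant of the 9 genes and did not pass the test. Comp had 502, 822, 551 and 589 normalised read counts in cast replicates 1 to 4, against 1048, 637, 751 and 987 in naive replicates 1 to 4. Only cast replicate 2 reached into the naive range. The means were 616 ± 142 in cast and 856 ± 194 in naive capsules (SD, n = 4 each), with a log2 fold change of -0.47 (SE 0.24, 95% interval -1.01 to 0.07, limma adjusted p = 0.253). The gene lies on chromosome 8 at 70373558 to 70382066 on the plus strand.

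Thbs4 had 506, 195, 440 and 207 normalised read counts in cast replicates 1 to 4, against 236, 170, 216 and 239 in naive replicates 1 to 4. The cast libraries fell into a high pair, replicates 1 and 3, and a low pair within the naive range. The means were 337 ± 159 in cast and 215 ± 31.9 in naive capsules (SD, n = 4 each), with a log2 fold change of 0.53 (SE 0.32, 95% interval -0.20 to 1.26, limma adjusted p = 0.340). The ratio of Thbs4 to Comp was 1.01, 0.238, 0.7999 and 0.352 in cast replicates 1 to 4, against 0.225, 0.266, 0.287 and 0.242 in naive replicates 1 to 4. The log2 ratio differed by 1.004 between the groups, with overlap (two-sided exact permutation p = 0.114, also 0.114 adjusted over 4 ratios). Thbs4 lies on chromosome 13 at 92751590 to 92794818 on the minus strand.

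Cilp and Cilp2, the cartilage intermediate layer genes, are another pair of paralogues. Their coding sequences are less alike, with 62.5% of 3385 aligned bases identical, and the longest shared run is the 14 bases in capitals here.
Cilp2: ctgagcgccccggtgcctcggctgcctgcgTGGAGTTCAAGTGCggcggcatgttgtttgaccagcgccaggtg
Cilp: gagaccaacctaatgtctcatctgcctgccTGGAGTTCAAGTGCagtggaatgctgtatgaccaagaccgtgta
No stretch of 31 bases was shared (0 of 3456 from Cilp2).

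Cilp2 fell to 3 to 15 reads per cast library. It had 2.47, 1.199, 0.409 and 1.33 normalised read counts in cast replicates 1 to 4, against 92.1, 26.8, 25.5 and 20.1 in naive replicates 1 to 4. Naive replicate 1 stood far above the other naive libraries, and every cast library lay below every naive one. The mean was 1.35 ± 0.8500 in cast and 41.1 ± 34.1 in naive capsules (SD, n = 4 each), a cast mean of 3.29% of the naive mean, or 5.62% without naive replicate 1. The log2 fold change was -3.95 (SE 0.47, 95% interval -4.995 to -2.91, limma adjusted p = 0.00111), and it was -4.96 by edgeR on recovered reads, which adds no pseudocount of 1 (adjusted p = 0.00128). The cast libraries held 15, 8, 3 and 10 reads of Cilp2 and the naive libraries 611, 166, 154 and 31. By the size of its fall the gene ranked 9 among 15120. It lies on chromosome 8 at 69880369 to 69887687 on the minus strand.

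Cilp was far more abundant and shifted less. It had 535, 231, 303 and 204 normalised read counts in cast replicates 1 to 4, against 558, 404, 638 and 756 in naive replicates 1 to 4. Cast replicate 1 lay within the naive range and the other 3 cast libraries below it. The means were 318 ± 150 in cast and 589 ± 148 in naive capsules (SD, n = 4 each), with a log2 fold change of -0.96 (SE 0.32, 95% interval -1.67 to -0.24, limma adjusted p = 0.0862). Without cast replicate 1 the log2 fold change of Cilp was -1.24 and passed (adjusted p = 0.0214). The ratio of Cilp2 to Cilp was 0.00135 to 0.00653 in cast and 0.0265 to 0.165 in naive libraries, a difference of -3.93 on the log2 scale (two-sided exact permutation p = 0.0286, again the lowest possible; 0.0381 adjusted over 4 ratios). The pair was chosen after the values were seen and Cilp2 alone already separated the groups, so this p value adds no support of its own. Cilp lies on chromosome 9 at 65265180 to 65280605 on the plus strand.

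Chad, the chondroadherin gene, also fell. It had 11.04, 3.897, 5.32 and 4.27 normalised read counts in cast replicates 1 to 4, against 31.5, 26.3, 31.7 and 62.7 in naive replicates 1 to 4. The groups did not overlap, cast replicate 1 was the highest of the cast libraries and naive replicate 4 the highest of all. The mean was 6.13 ± 3.33 in cast and 38.1 ± 16.6 in naive capsules (SD, n = 4 each), with a log2 fold change of -2.47 (SE 0.35, 95% interval -3.26 to -1.68, limma adjusted p = 0.00283). Relative to Comp in the same library, Chad was 0.00474 to 0.02200 in cast and 0.0301 to 0.0636 in naive libraries. That difference of -2.21 on the log2 scale had a two-sided exact permutation p = 0.0286, again the lowest possible, and 0.0381 adjusted over 4 ratios. This pair too was chosen after the values were seen and Chad alone already separated the groups, so the p value adds no support of its own.

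Chad lies on chromosome 11 at 94565047 to 94569127 on the plus strand, within the span of Acsf2 on the opposite strand and with no overlap of exons. Among the genes that fell, its upstream sequence is shown because the starts given by RefSeq and GENCODE coincide there. The 250 bases before its start, at chr11:94564797-94565046 on the plus strand (RefSeq, GRCm38.p6), have in capitals an E-box (CANNTG, the kind of site that scleraxis and related factors bind) and a TATA box (TATAAA).
Chad: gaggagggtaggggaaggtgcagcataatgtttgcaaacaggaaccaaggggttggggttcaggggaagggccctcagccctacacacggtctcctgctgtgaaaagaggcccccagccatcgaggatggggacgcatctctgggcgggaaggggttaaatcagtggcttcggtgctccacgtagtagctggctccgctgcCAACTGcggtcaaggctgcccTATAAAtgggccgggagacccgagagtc
The E-box began 49 bases and the TATA box 28 bases before the start. An AP-1 site (TGANTCA) and an Egr site (GCGNGGGCG) were also searched for, on both strands, with 0 matches in this window. Of 32851 such windows in the mouse genome, 66.2% held an E-box, 12.4% a TATA box, 6.75% an AP-1 site and 4.70% an Egr site. These matches describe letters and not bound sites. The E-box of Chad did not overlap its TATA box.

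**Figure D2:**
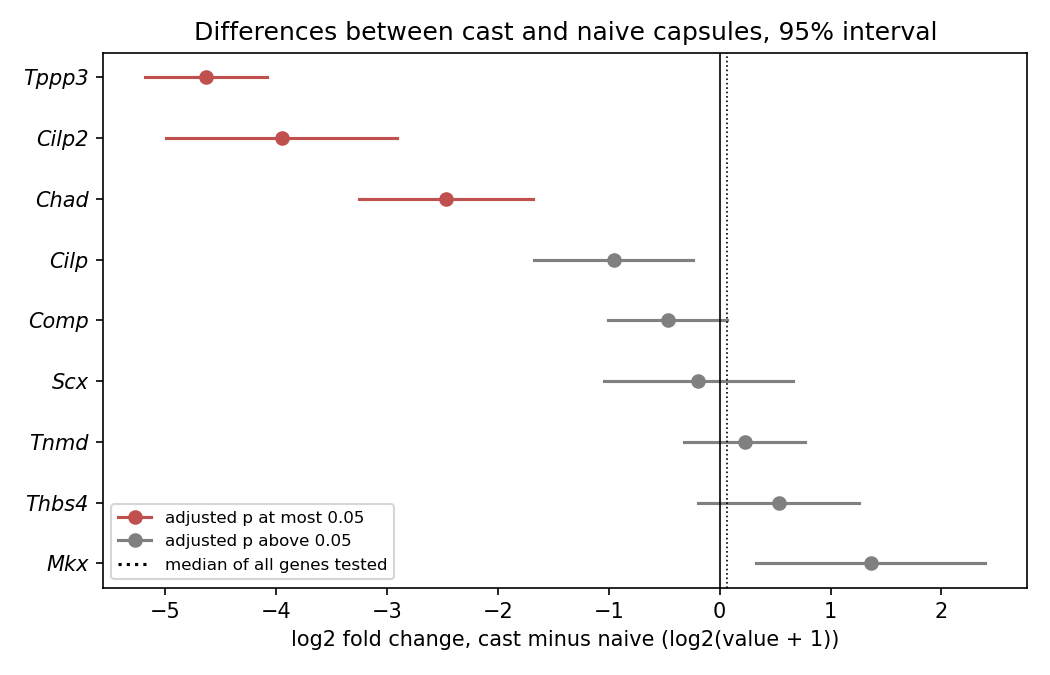
Log2 fold change of each gene (log2 of value + 1, positive where cast is higher), with its 95% interval from limma. Genes past an adjusted p of 0.05 are in red and others in grey, and the dotted line is the median of all genes tested, 0.07. Tppp3, Cilp2 and Chad lie at -4.63, -3.95 and -2.47, and the intervals of Comp, Scx, Tnmd and Thbs4 include 0.

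Compared per kilobase of exon, the order of the levels differed between the groups. In cast capsules Comp led with 208 ± 47.9 normalised read counts per kilobase, before Thbs4 at 103 ± 48.5 and Cilp at 74.9 ± 35.4 (mean ± SD, n = 4). The ranges of Thbs4 and Cilp overlapped. Next came Tppp3 at 6.60 ± 1.31, Tnmd at 4.16 ± 1.53, Chad at 3.65 ± 1.98, Mkx at 2.22 ± 1.093 and Scx at 1.44 ± 0.936, each overlapping its neighbour in the order, and Cilp2 was last at 0.314 ± 0.197. In naive capsules the order was Comp at 288 ± 65.4 normalised read counts per kilobase, Tppp3 at 182 ± 65.6, Cilp at 139 ± 34.7, Thbs4 at 65.4 ± 9.71, Chad at 22.7 ± 9.90, Cilp2 at 9.52 ± 7.91, Tnmd at 3.35 ± 0.482, Scx at 1.65 ± 0.788 and Mkx at 0.753 ± 0.5697 (mean ± SD, n = 4). There the ranges of Comp and Tppp3, of Tppp3 and Cilp, of Chad and Cilp2, and of Scx and Mkx overlapped. Tppp3 thus stood next to Comp in naive capsules and behind Comp, Thbs4 and Cilp in cast capsules. Exon lengths are unions over GENCODE M21 transcripts and need not be those the authors' counting used.

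Other tendon matrix genes went both ways. For this list and those below, the shares over all genes tested were 6.51% called higher and 5.46% lower. Of 20 genes of tendon and ligament matrix, 2 rose, 2 fell and 16 did not pass, with a median log2 fold change of 0.04. Their summed level was 28680 to 51481 in cast and 29052 to 50631 in naive libraries, with Col3a1, a fibrillar collagen gene named after its value was seen, at 14153 in cast and 14186 in naive capsules on average. Those that fell were Prelp, a leucine-rich repeat proteoglycan gene, at 193 ± 43.6 in cast and 672 ± 87.1 in naive capsules (SD, n = 4 each; log2 fold change -1.82, limma adjusted p = 0.00110), and Tnxb, which encodes tenascin X, at 667 ± 303 in cast and 2723 ± 554 in naive capsules (-2.10, limma adjusted p = 0.00338). Lum, the lumican gene, rose to 1678 ± 228 in cast capsules, against 252 ± 169 in naive capsules (3.22, limma adjusted p = 0.0157), and did not pass without cast replicate 3 (adjusted p = 0.0516) or without cast replicates 1 and 2 (adjusted p = 0.106). In naive replicate 4 Lum was 31.7, against 241 to 440 in naive replicates 1 to 3, and leaving out 1 library gave log2 fold changes of 2.40 to 3.65. Ogn and Aspn, named after their values were seen, were 25.9 and 1.94 there, against 556 to 678 and 155 to 237. Their log2 fold changes, which enter the list median, were 0.49 and 0.44 although their cast means were lower. Col12a1, a fibril-associated collagen gene named after its value was seen, rose to 450 ± 423 in cast capsules, against 53.7 ± 41.6 in naive capsules (2.85, limma adjusted p = 0.0219). It did not pass without cast replicate 3, naive replicate 2 or naive replicate 3 (adjusted p = 0.0682, 0.0575 and 0.0639), nor without cast replicates 1 and 2 (adjusted p = 0.0998). Tnc, the tenascin C gene, also named after its value was seen, averaged 236 ± 158 in cast and 45.1 ± 35.9 in naive capsules without passing (2.27, limma adjusted p = 0.0558). On recovered reads edgeR and DESeq2 each called 3 of the 20 genes higher and 2 lower.

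Of 12 tested regulators of tendon and ligament development, 2 fell and 10 did not pass, and the median log2 fold change was -0.26. Those lower were Egr2 and Egr1, zinc finger factors that respond quickly to load and growth signals and take part in tendon collagen expression. Egr2 averaged 3.17 ± 1.28 in cast and 11.9 ± 4.18 in naive capsules (SD, n = 4 each; log2 fold change -1.62, limma adjusted p = 0.00872), and did not pass after each library was centred on fibroblast genes (-0.85, adjusted p = 0.0602). Egr1 averaged 75.7 ± 45.6 in cast and 332 ± 177 in naive capsules (SD, n = 4 each; -2.24, limma adjusted p = 0.0312), and it did not pass when cast replicate 1, cast replicate 3 or naive replicate 3 was left out (adjusted p = 0.0707, 0.0516 and 0.0841), or when cast replicates 1 and 2, or naive replicate 4 and cast replicate 1, were left out together (adjusted p = 0.0860 and 0.0553). Gdf5, a signal of joint and tendon development, was among the 10 that did not pass.

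Some other genes of sheath and progenitor fibroblasts also fell. Of 8 genes of sheath, paratenon and perivascular progenitor fibroblasts, 3 fell and 5 did not pass, with a median log2 fold change of -0.63. Among these 8, 5 had a log2 fold change below 0 and 3 above 0. Those 3, named after their values were seen, were Pdgfra at 0.20, Ly6a at 0.12 and Pi16 at 0.02. None of them passed (limma adjusted p = 0.523, 0.866 and 0.975). For Pdgfra all cast libraries lay above all naive libraries, as for 11.1% of all genes. Dpp4, which encodes a membrane peptidase of fascial fibroblasts, averaged 13.8 ± 2.95 in cast and 45.9 ± 4.13 in naive capsules (SD, n = 4 each; log2 fold change -1.68, limma adjusted p = 0.00111). Cd34, a surface sialomucin gene of progenitors and vessels, averaged 197 ± 40.8 in cast and 409 ± 69.2 in naive capsules (SD, n = 4 each; -1.06, limma adjusted p = 0.0123), and did not pass after centring on fibroblast genes (-0.30, adjusted p = 0.385) or without cast replicates 1 and 2 (adjusted p = 0.0826). Nes, which encodes the filament protein nestin, had a log2 fold change of -0.94 (limma adjusted p = 0.0173), and did not pass without naive replicate 2 or 3 (adjusted p = 0.0584 and 0.0524). Nes also did not pass after centring on fibroblast genes (-0.17, adjusted p = 0.492), with thinning (-0.80, adjusted p = 0.0652) or without cast replicates 1 and 2 (adjusted p = 0.0938). Among other thrombospondins and the proteases that cleave COMP, 1 of 5 fell and 4 did not pass. That gene was Thbs3, at 90.6 ± 16.4 in cast and 198 ± 51.9 in naive capsules (SD, n = 4 each; -1.10, limma adjusted p = 0.0116), and it did not pass after centring on fibroblast genes (-0.34, adjusted p = 0.120).

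Cartilage cell genes were low in both groups. Of 12 tested cartilage genes, 1 rose, 2 fell and 9 did not pass, with a median log2 fold change of 0.07, and the summed level of the 14 with a row was 55.1 to 257 in cast and 68.1 to 104 in naive libraries. Col2a1, the main collagen gene of cartilage, averaged 1.07 ± 0.809 in cast and 8.72 ± 3.95 in naive capsules (SD, n = 4 each; log2 fold change -2.22, limma adjusted p = 0.00573). Matn3, the gene of this list that rose, averaged 1.70 ± 1.12 in cast capsules and 0 in naive capsules. Its log2 fold change was 1.35 (limma adjusted p = 0.0157), and its values lay near the floor. The part of cartilage cells in the values of Comp, Cilp2 and Chad, which cartilage also expresses, was not tested.

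**Figure D3:**
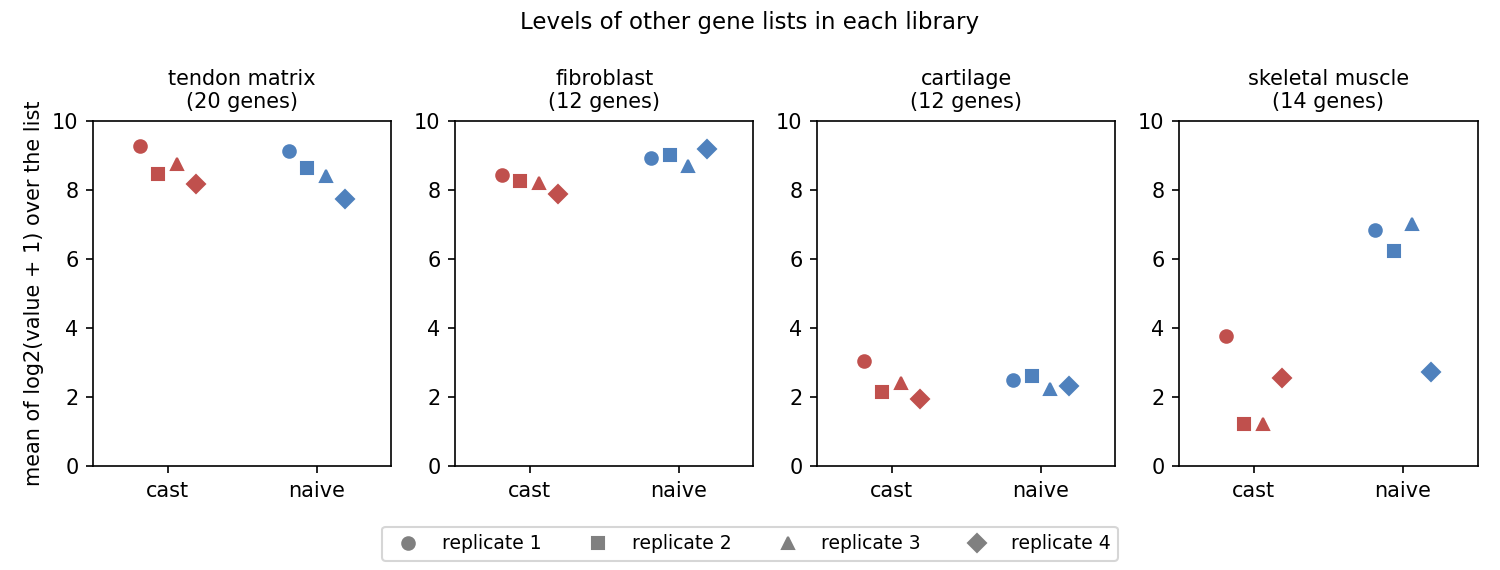
Mean of log2(value + 1) over the tested genes of the lists named above each panel, in each library, with cast on the left and naive on the right and symbols for replicates. The fibroblast list lies at 7.88 to 8.43 in cast and 8.70 to 9.17 in naive libraries. In the muscle list naive replicate 4 lies at 2.74, within the cast range of 1.21 to 3.77.

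Markers of some other cell types also differed between the groups. Of 12 general fibroblast genes 4 fell and 8 did not pass, with a median log2 fold change of -0.69 and a summed level of 7057 to 8873 in cast and 14334 to 18273 in naive libraries. Gsn, which encodes the actin-severing protein gelsolin, made up most of that sum in naive libraries, at 2952 ± 753 in cast and 10221 ± 1236 in naive capsules (SD, n = 4 each; log2 fold change -1.82, limma adjusted p = 0.00688). Of the 12 genes, 10 had a log2 fold change below 0 and 2 above 0. Those 2, named after their values were seen, were Mmp2 at 0.90 and Pdgfra at 0.20 (limma adjusted p = 0.147 and 0.523). When each library was centred on the mean log2 level of the fibroblast list, the median of all genes moved to 0.83, so that 8045 genes were called higher and 206 lower, against 984 and 826 without centring. In that fit the falls of Tppp3, Cilp2 and Chad were still called at -3.87, -3.19 and -1.70 (adjusted p = 2.88e-05, 0.00156 and 0.00339). Mkx, Tnmd and Thbs4 had log2 fold changes of 2.13, 0.99 and 1.30 there, measured from 0 and not from that median of 0.83. They were called higher (limma adjusted p = 0.00916, 0.0140 and 0.00929), and Comp and Scx changed sign to 0.30 and 0.57 without being called.

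Of 14 skeletal muscle genes 6 fell and 8 did not pass, with a median log2 fold change of -3.58. Their summed level was 21.4 to 402 in cast libraries, 1736 to 3052 in naive replicates 1 to 3 and 126 in naive replicate 4. Naive replicate 4 thus lay within the cast range of that sum. With the muscle level as a covariate Tppp3, Cilp2 and Chad had log2 fold changes of -5.33, -2.94 and -2.74 and were still called (limma adjusted p = 1.90e-05, 0.00941 and 0.00862), and Mkx was called at 2.28 (limma adjusted p = 0.0249). In that fit 2926 of 15120 genes were called higher and 1443 lower. That covariate, the list's mean log2 level, was 1.21 to 3.77 in cast libraries and 6.22 to 7.01 in naive replicates 1 to 3. It was thus nearly confounded with the group, with only naive replicate 4, the shallowest library, in the cast range. Of 9 fat cell genes 4 fell, and of 9 neutrophil and marrow genes and 7 red cell genes, 6 and 7 rose. Summed levels of these lists were 2336 to 9120, 640 to 5726 and 3940 to 19837 in cast libraries, against 6507 to 12530, 22.98 to 63.9 and 1174 to 1773 in naive libraries. The part of fat, neutrophil and red cell RNA in the results was not tested. Of 10 macrophage, 8 endothelial and 8 smooth muscle and pericyte genes limma called 0, with 3, 1 and 2 at an unadjusted p under 0.05. On recovered reads edgeR called 0, 0 and 1 of these, and DESeq2 called 1, 1 and 1. Of 8 bone genes 2 rose and 2 fell, and of 8 Schwann cell genes 1 fell.

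**Figure D4:**
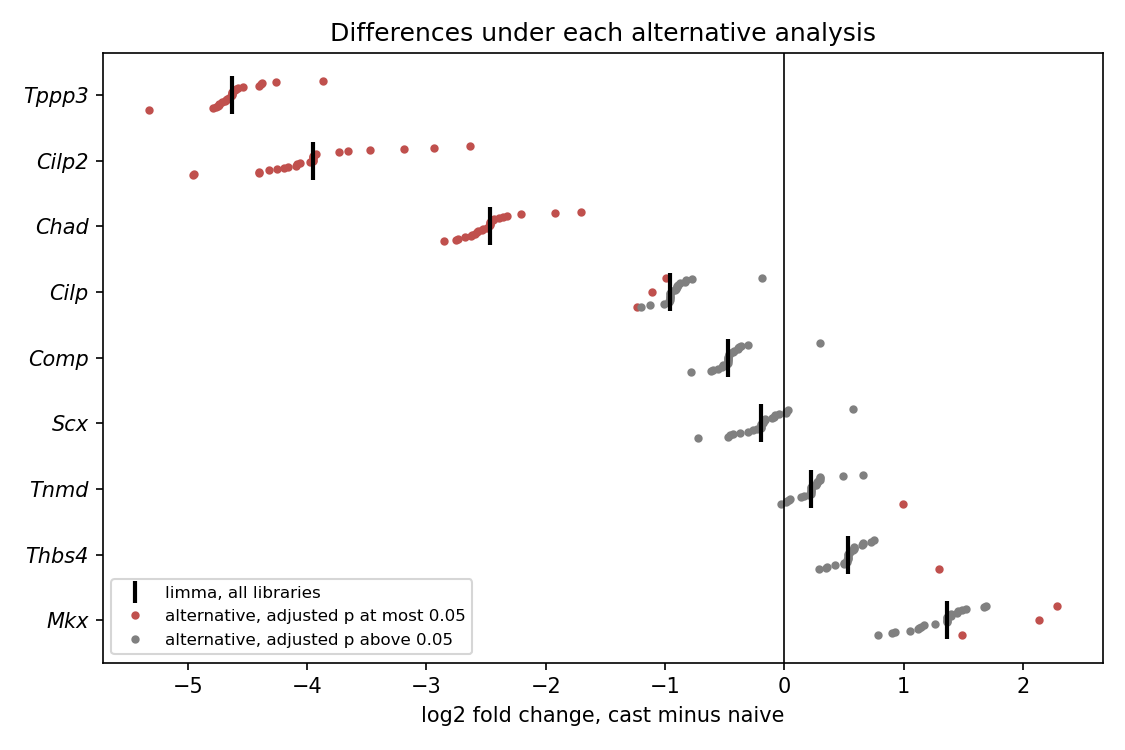
Log2 fold change of each gene, cast minus naive, under each alternative analysis (points) and with limma on all libraries (vertical bars). Red points are alternatives with an adjusted p of at most 0.05. Tppp3, Cilp2 and Chad lie at or below -3.87, -2.63 and -1.70 in every alternative shown, and the points of Scx, Comp and Tnmd reach both sides of 0.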

How the data were processed

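Total RNA of 8 libraries was depleted of ribosomal RNA and sequenced as 150 nt pairs from directional libraries, per the labels' protocols. The deposited signal is a normalised read count per gene and library, made by the authors. Per the labels' protocols, reads were trimmed with Trimmomatic 0.38 and mapped with Bowtie2 within RSEM to hg38, whereas mm10, Trimmomatic 0.36 and edgeR, beside Bowtie2 and RSEM, stand in the submitters' processing notes. The conflict could not be settled here, and the gene symbols are mouse symbols. Other versions, and whether counting used strand, were not given in the sources used here. Every value was a whole multiple of the smallest step of its library (100% within 0.01 of a whole number), and this gave recovered reads. Expected counts from RSEM need not be whole, so the counting step may differ from the one described. All 8 columns were used, and 0 were left out.

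The 9 genes and the gene lists were chosen with earlier results of these data known. The main test was limma-trend on log2(value + 1) for genes with a mean of at least 0.5, with Benjamini-Hochberg adjustment over all genes tested and a threshold of 0.05. edgeR and DESeq2 were run on recovered reads as alternatives. Further ones were a filter of 5 or none, a pseudocount of 0.5 or 5, median-of-ratios and quantile scaling, scaling without muscle, red cell and neutrophil genes, centring on fibroblast genes, no variance trend, array weights, a muscle covariate, a replicate block, thinning to 1503880 reads, and leaving out each library. Leaving out 2 libraries together was added after the data were seen. Genes named from a list were among its 3 smallest limma p values, with exceptions marked, and genes of like pattern were the 3 with the highest Pearson r. Replicate numbers were not used to pair the libraries in the main test, and whether same-numbered libraries shared a day or batch was not known. Counting intervals are exact Poisson and cover counting error only. Positions, exon lengths and coding sequences are from GENCODE M21 (GRCm38), and promoters are from RefSeq, which held 5 of the 9 genes. The limma, edgeR and DESeq2 fits of cast against naive, without further terms, were tested on simulated data. Changes were given there only to genes with a mean value of at least 5, which Scx did not reach. The simulated spread was smoothed over genes of like level, and no library deviated from its group. Limma called 22% and 34% of 50 genes each with a true log2 fold change of -1 and 1. At -2 and 2 it called 98% and 100%. In the data some genes of wide spread did not pass at larger changes. Examples, named after their values were seen, were Tnc (2.27, limma adjusted p = 0.0558) and Myh4 (-4.62, limma adjusted p = 0.0615). A gene that did not pass may thus have changed by 1 log2 unit, or by more where its libraries varied widely. Software was DESeq2 1.42.0, edgeR 4.0.16 and limma 3.58.1 under R 4.3.3, and matplotlib 3.10.9, scipy 1.17.1, numpy 2.4.6 and pandas 2.3.3 under Python 3.11.15.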

Additional observations from a re-analysis of the deposited data

Results flagged for a closer look

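Each of the 9 genes was examined in each group, and in 4 of these 18 sets of 4 libraries the highest library stood apart from the rest, with a gap to its neighbour, as a part of the range, above Dixon's 95% critical value. Chance flags some sets by this measure even where no library differs. Tppp3 had 516 normalised read counts in naive replicate 4, with a gap of 0.840 of the naive range. Chad had 62.7 in the same library, with a gap of 0.850. Cilp2 had 92.1 in naive replicate 1, with a gap of 0.907. Tnmd had 8.73 in cast replicate 1, with a gap of 0.928. Naive replicate 4 is the library with 1503880 recovered reads, and the part of its depth in these values was not tested.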

How the results depend on the processing

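Limma called 1810 genes in all, against 8251 when libraries were centred on fibroblast genes, 3985 with array weights, 4369 with a muscle covariate and 2754 with DESeq2. Leaving out 1 library gave 916 to 2665 genes, with 1143 without cast replicate 2, 916 without cast replicate 3, 1010 without naive replicate 2, 1043 without naive replicate 3 and 2665 without naive replicate 4, and leaving out 2 together gave 717 (cast replicates 1 and 2) and 3278 (naive replicate 4 and cast replicate 1). The replicate block gave 1371 genes, and same-numbered libraries correlated at -0.057 to 0.080 in their deviations from group means. It changed the call of none of the 9 genes, and among the other genes named, Cytl1 apart, it ended that of Egr1 (adjusted p = 0.0546).

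Tppp3, Cilp2 and Chad were called lower in each of 25 alternatives, at -5.33 to -3.87, -4.96 to -2.63 and -2.85 to -1.70. Of the 9 genes, 3 were called higher after centring on fibroblast genes (Mkx, Tnmd and Thbs4), 1 with a muscle covariate and 1 with DESeq2 (Mkx in each), and 0 in every leave-one-out fit. Over all genes, 8045 of 15120 were called higher after centring, 2926 of 15120 with the muscle covariate and 1464 of 15102 with DESeq2. Cilp passed with array weights (-0.99, adjusted p = 0.00857), without cast replicate 1 (-1.24) and without naive replicate 4 and cast replicate 1 (-1.11). Scx, never called, changed sign after centring (0.57), with array weights (0.030) and without cast replicate 4 or naive replicate 1 (0.013 and 0.012), within a leave-one-out range of -0.48 to 0.013. Comp changed sign after centring (0.30), and Tnmd without naive replicate 4 and cast replicate 1 (-0.033). The share of genes with separate groups was 20.5%, against 53.4% after centring, 36.4% without cast replicates 1 and 2, 40.7% without naive replicate 4 and cast replicate 1, and 22.4% to 30.6% with 1 library left out, where fewer libraries have to separate. Other causes were not tested. A filter of 5 left Scx untested. Depth limits Scx, Mkx and Tnmd, with 2 to 6 reads in naive replicate 4.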

Other observations

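Genes most like Cilp2 across the 8 libraries, among the 9814 with a mean of at least 10, were Wdr48, Dusp18 and Zbtb21, with Pearson r of 0.984, 0.976 and 0.973 on the log2 scale. Those most like Chad were Magi2, Sptan1 and Dusp8, with r of 0.991, 0.975 and 0.974. Dusp8, which encodes a phosphatase of MAP kinases, averaged 5.06 ± 2.13 in cast and 21.5 ± 3.12 in naive capsules (SD, n = 4 each). For the genes that did not pass, the nearest patterns were Siah1a for Tnmd (r = 0.980), Prpf8 for Comp (0.950), Myo1e for Thbs4 (0.945), Pi4k2a for Cilp (0.941), Cep85 for Mkx (0.932) and Gpr137b for Scx (0.847). These coefficients rest on the same 8 libraries, include any step between the groups and carry no test.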
